A study of Mus musculus with 2 samples.

Results

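Cells keep reactive oxygen in check with a set of enzymes that act in series, and 35 mouse genes of this defence were followed here: the makers and users of glutathione, the thioredoxins and peroxiredoxins, the superoxide dismutases with catalase, and NRF2 with its regulator and its targets. The genes were listed by symbol, and a probe belonged to one of them where its RefSeq accession led to that symbol. All 35 were on the array, among 20618 genes named in this way, with 47 probes and 56 spots. Of the 35, 31 had at least 1 probe well above background on both arrays, which is the scanner software's own flag for a detected spot. Only the SoNar-high array detected Srxn1, and Slc7a11, Gpx7 and Nqo1 were detected on neither array. Over all named genes, 51% were detected on both arrays, 26.5% on the SoNar-high array alone and 22.5% on neither.

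The samples were cells of a B-cell acute lymphoblastic leukaemia, taken from the bone marrow of C57BL mice aged 8 weeks. SoNar is a fluorescent sensor protein whose ratio of emission after excitation at 2 wavelengths follows cytosolic NADH over NAD+. Sorting on that ratio gave the SoNar-high and the SoNar-low cells, and each group was measured on 1 Agilent 1-colour array of total RNA. The titles of the same samples read N-myc-high and N-myc-low, a pair of names that the labels do not explain. The sources used here do not say how the leukaemia was made or whether several mice were pooled. The question is how the sorted populations, which differ in their redox sensor signal, differ in expression.

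Glutathione is a tripeptide made in a pair of ligase steps. Peroxidases and glutaredoxins spend it, and glutathione reductase restores it with electrons from NADPH. Thioredoxin works in parallel: it reduces peroxiredoxins and methionine sulfoxide reductases and is itself restored by thioredoxin reductase, again with NADPH. Superoxide dismutases turn superoxide into hydrogen peroxide, which catalase, peroxiredoxins and glutathione peroxidases remove. Many of these genes are induced by the transcription factor NRF2, which KEAP1 marks for destruction in unstressed cells. SoNar follows NADH over NAD+ and not NADPH, so its ratio does not read the carrier used by the reductases named above.

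With 1 array per group no test is possible, and every value below describes these 2 arrays. Of 43020 spots, 72.9% were well above background for SoNar-high cells and 44.8% for SoNar-low cells, and 0 were saturated. The arrays were scanned in different sessions, so session and group cannot be told apart. Differences are SoNar-high minus SoNar-low on the log2 scale, after each array was set to its 75th percentile. That percentile was a signal of 525 on the SoNar-high and 475 on the SoNar-low array, so a scaled difference is 0.15 below the plain log2 ratio of the printed signals. Each printed signal carries the error that the scanner software assigns to it, as signal ± error. For a single bright spot this makes about 0.20 on the log2 difference. Repeat spots of a probe had a median SD of 0.15 over 193 probes, and different probes of a gene a median SD of 0.32 over 2394 genes. The last of these is the widest and is the one to hold a member's value against. It comes from 1 pair of arrays and so holds no spread between mice, sorts or scanning sessions. Of the cell type genes, 14 of 17 B lineage markers were measured on both arrays with a median difference of -0.22, from Ebf1 at -0.92 to Cd22 at 1.16 and 10 of them below 0, while neither array detected Igll1, Rag1 or Rag2.

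For most of the measured defence genes the difference between the sorted populations was small. The catalase gene Cat and the haem oxygenase gene Hmox1 were at least 2-fold higher on the SoNar-high array, and Prdx4, a peroxiredoxin of the secretory pathway, was at least 2-fold lower. Thus 2 of the 31 measured members lay past 2-fold on the higher side, where 4.87% of all 10517 measured genes did, and 1 on the lower side, where 1.68% did. Counts this small, read against those shares, say nothing particular about the set. The median difference of the 31 was -0.19 against -0.17 for all genes. For 20 of the 31 the difference was within 0.5 of 0, and 64.5% of members against 63.9% of all genes were that close. Measured from the median of all genes, 17 of the 31 members were nearer than the between-probe SD of 0.32, as were 48.6% of all genes. Farther above were Gclm, Gstp1, Mgst3, Prdx2, Cat and Hmox1, and farther below were Gsr, Gsto1, Glrx3, Txn2, Msra, Prdx4, Sod2 and Nfe2l2.

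**Figure D1:**
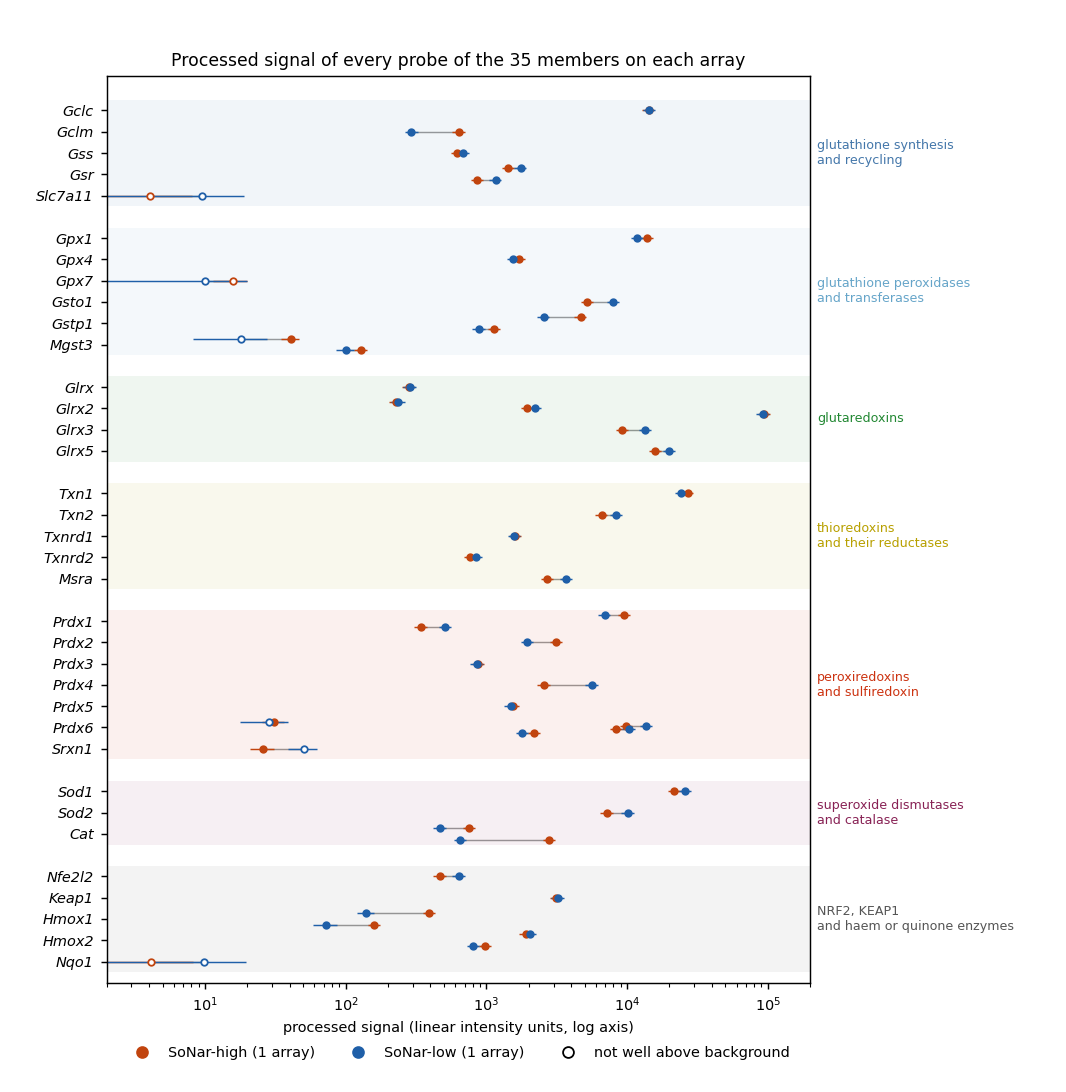
Processed signal (linear intensity units on a log axis) of each of the 47 probes of the 35 genes, with the SoNar-high array in orange and the SoNar-low array in blue, 1 array each; a grey line joins the pair of a probe and bars are the scanner software's error. Open circles mark signals not well above background; the widest gaps among filled pairs are those of Cat, Hmox1, Gclm and Prdx4.

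The genes of glutathione synthesis and recycling ranged from Gsr at -0.51 to Gclm at 0.97. Gclc, the catalytic subunit of glutamate-cysteine ligase, which sets the pace of glutathione synthesis, gave 14220.3 ± 1422 in SoNar-high cells and 14357 ± 1436 in SoNar-low cells, the order in which all pairs of signals follow. Its difference of -0.16 is close to the median of all genes. Gclm, the modifier subunit that makes the ligase more efficient, gave 637 ± 63.8 and 293 ± 31.0. Gclm was thus 1.96-fold higher in the SoNar-high sample, a difference of 0.97 just under the 2-fold mark, from 1 probe. The subunits of the same enzyme stood apart, Gclm being above 94.8% of all measured genes and Gclc above 50.7%. Gss, which joins glycine on in the last step, gave 623 ± 62.5 and 678 ± 68.7, a difference of -0.27. Gsr, the glutathione reductase, had 2 probes that ran alike: 1423 ± 142 against 1751 ± 175 for the brighter, and 860.0 ± 86.1 against 1162 ± 117 for the other. Their differences of -0.44 and -0.58 average to -0.51, with an SD of 0.10 between probes, so both probes were lower in the SoNar-high sample. Slc7a11, the cystine importer that supplies cysteine for glutathione, was not well above background on either array, with signals of 4.05 ± 4.04 and 9.47 ± 9.44.

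The glutathione peroxidases and transferases had a median of 0.08. Gpx1, the abundant cytosolic peroxidase, gave 13834 ± 1383 and 11849 ± 1185, a difference of 0.08. Gpx4, which repairs lipid peroxides in membranes and guards against ferroptosis, gave 1698 ± 169.9 and 1553 ± 156, a difference of -0.02. Both peroxidases thus lay within the probe spread of the median of all genes. Gpx7, an enzyme of the endoplasmic reticulum, was not well above background on either array. Gsto1, an omega class transferase with glutaredoxin-like activity, gave 5202 ± 520.3 and 7936 ± 794. At -0.75, or 1.69-fold lower in the SoNar-high sample, it was the second lowest member after Prdx4. Gstp1, the pi class transferase, was higher in the SoNar-high sample with both of its probes, at 4668 ± 467 against 2551 ± 255 and at 1136 ± 114 against 885 ± 89.2. The differences of 0.73 and 0.22 average to 0.47 with an SD of 0.36. With median scaling it stood at -0.14. Mouse Gstp1 has a close copy, Gstp2, whose 2 probes gave -0.52 and 0.22, and a probe may bind RNA of both. Mgst3, a membrane-bound transferase, had 1 measured probe, at 129 ± 13.6 against 100.1 ± 15.0, a difference of 0.21. That sign turned with 4 settings, reading -0.40 under median scaling, -0.20 under quantile normalization, -0.06 under normexp and -0.22 in the authors' deposited table. Its other probe was well above background only on the SoNar-high array, where it gave 40.7 ± 5.96 against 18.0 ± 9.78.

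Glutaredoxins are small proteins that use glutathione to undo mixed disulfides, and Glrx3 and Glrx5 serve iron-sulfur cluster handling. All 4 lay below the median of all genes, with a median of -0.34, while set against genes of like level 1 of the 4, Glrx2, lay above. Of the 4, 0 reached 2-fold, where 4.87% of all genes did upward and 1.68% downward. Glrx, the cytosolic enzyme, gave 282 ± 28.5 and 288 ± 30.8, a difference of -0.18. Glrx2 had 3 probes whose differences were -0.20, -0.32 and -0.12, an SD of 0.10, although their signals on the SoNar-high array ran from 227 to 93988. Such a range within a gene shows that signals of different probes cannot be read as amounts, while the difference was steady over them. Glrx3 gave 9262 ± 926 and 13396 ± 1340, a difference of -0.68. Glrx5 gave 15815 ± 1582 and 19879 ± 1988, a difference of -0.47.

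The thioredoxin group had a median of -0.27. Txn1, the cytosolic thioredoxin, was level between the arrays: 26944 ± 2694 against 24282 ± 2428, a scaled difference of 0.01. Its reductase Txnrd1 gave 1599 ± 160.0 and 1583 ± 159, a difference of -0.13. The mitochondrial pair was lower, Txn2 at 6588 ± 659 against 8382 ± 838 and a difference of -0.49, and its reductase Txnrd2 at 768 ± 76.9 against 839.9 ± 84.6 and a difference of -0.27. Msra, which reduces oxidised methionine with electrons from thioredoxin, gave 2715 ± 272 and 3710 ± 371, a difference of -0.60. Of the 5 genes 2, Txn1 and Txnrd1, exceeded the all-gene median. Past 2-fold there were 0, where 4.87% of all genes were upward and 1.68% downward.

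**Figure D2:**
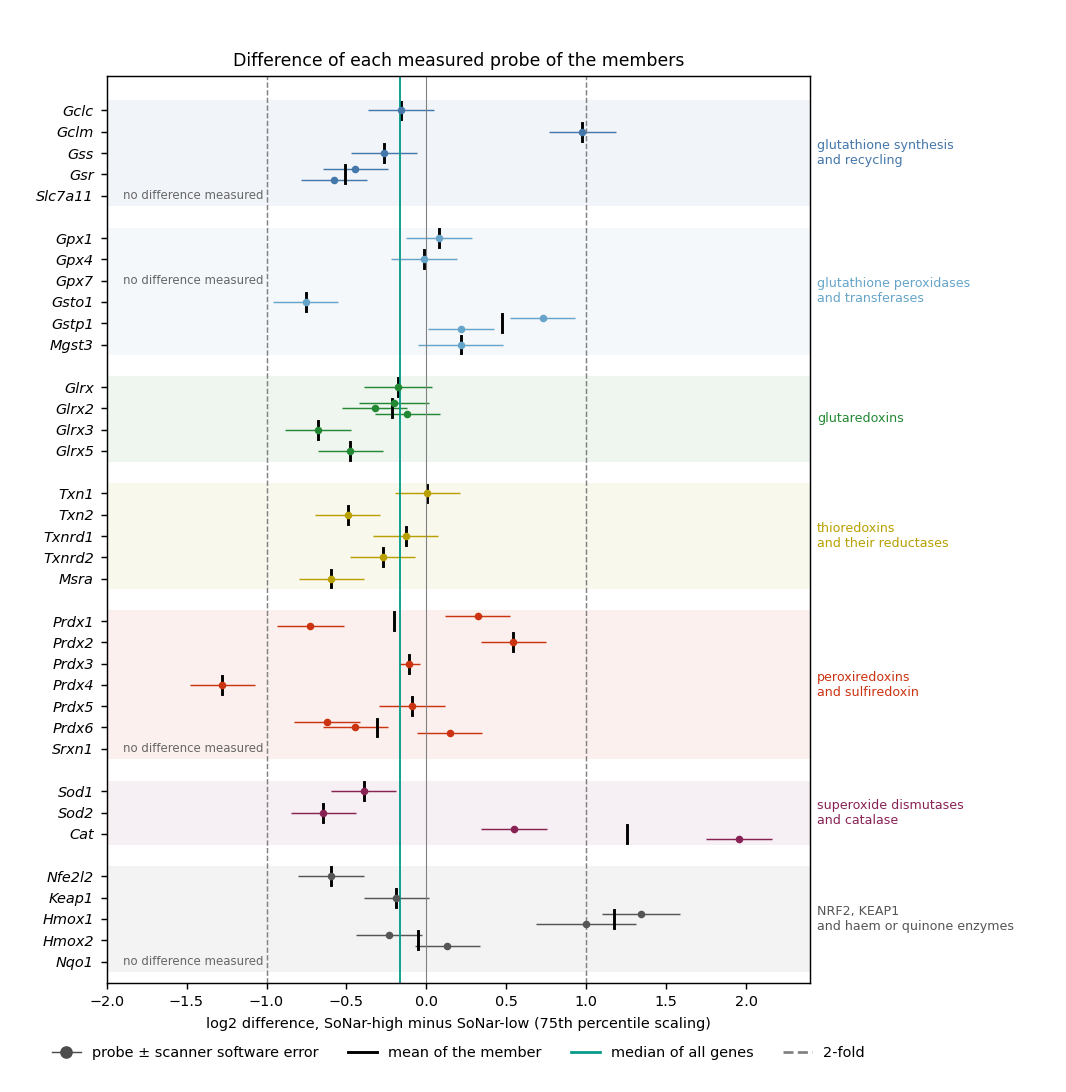
Log2 difference, SoNar-high cells minus SoNar-low cells, for each measured probe of the 35 genes, grouped by system; bars are the scanner software's error of the difference, divided by the root of the number of spots, and black ticks the mean of the gene. Cat and Hmox1 have their means right of the dashed 2-fold line and Prdx4 lies left of the other, while the probes of Prdx1, Prdx6 and Hmox2 fall on both sides of 0.

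Among the peroxiredoxins, Prdx4 had the lowest difference of the 31 measured members. Its probe gave 2559 ± 256 and 5605 ± 561, which is 2.42-fold lower in the SoNar-high sample, a difference of -1.28. Only 0.523% of all measured genes had a lower difference, and the value rests on 1 spot. Prdx4 removes hydrogen peroxide in the endoplasmic reticulum and so helps disulfide formation in secreted proteins. Prdx2, the peroxiredoxin that red cells hold in quantity, went the other way with 3146 ± 315 and 1952 ± 195, a difference of 0.54 or 1.46-fold higher, which with median scaling became -0.07. Prdx3, the mitochondrial peroxiredoxin, was printed in 10 spots, with mean signals of 875 and 853. Its difference of -0.11, with an SD of 0.11 over those spots, rests on more spots than any other member, although spots of 1 array share 1 sample. Prdx5, found in mitochondria, peroxisomes and cytosol, gave 1549.7 ± 155 and 1491 ± 149.6, a difference of -0.09.

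Prdx1 and Prdx6 had probes that disagreed in sign. For Prdx1, a broadly expressed cytosolic peroxiredoxin, the brighter probe gave 9570.03 ± 957 against 6926 ± 693, a difference of 0.32, and the dimmer 342 ± 34.6 against 511 ± 52.7, a difference of -0.73. Their mean of -0.20, with an SD of 0.74, settles no direction for this gene. Prdx6, which also has phospholipase activity, had 3 measured probes at -0.62, -0.45 and 0.14, a mean of -0.31 with an SD of 0.40. Its other probe was dim, at 30.8 ± 5.37 against 28.3 ± 10.7, and counted as detected on the SoNar-high array alone. Srxn1, sulfiredoxin, which revives over-oxidised peroxiredoxins, gave 26.0 ± 4.92 on the SoNar-high array, where it was marked as detected, and 50.7 ± 11.6 on the SoNar-low array, where it was not. The signal was thus larger on the array without the flag, and no fold can be given.

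Both superoxide dismutases had negative differences and catalase a positive one, under every setting that was run. Sod1, the copper-zinc enzyme of the cytosol, gave 21707 ± 2171 and 25772 ± 2577, a difference of -0.39. Sod2, the manganese enzyme of mitochondria, gave 7161 ± 716 and 10124 ± 1012, a difference of -0.64 or 1.56-fold lower. Cat, which breaks down hydrogen peroxide in peroxisomes, was higher in the SoNar-high sample with both probes. The probe A_55_P2148873 gave 2804 ± 280.5 against 653 ± 66.5, a difference of 1.96, and the probe A_51_P191611 gave 754 ± 75.5 against 467 ± 47.7, a difference of 0.55. The probes share a direction but not a size. The mean of 1.25, or 2.38-fold, was above 97% of all measured genes, yet the SD between probes was 1.00, and by the second probe alone Cat would be 1.46-fold higher.

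The last group holds NRF2, KEAP1 and enzymes of haem and quinones. Nfe2l2, which encodes NRF2, gave 466 ± 46.9 and 636 ± 64.8, a difference of -0.59. Keap1, its inhibitor, gave 3126 ± 313 and 3221 ± 322, a difference of -0.19 that is close to the median of all genes. Hmox1, the inducible haem oxygenase, was higher in the SoNar-high sample with both probes: 393 ± 39.6 against 140.0 ± 18.9, and 160.1 ± 16.6 against 72.4 ± 13.8. The differences of 1.34 and 1.00 average to 1.17, or 2.25-fold, with an SD of 0.24. The probes of Hmox1 were closer to each other than those of Cat, but Hmox1 was dim, its level lying above that of only 20.0% of measured genes. With quantile normalization its difference was 0.87, with normexp 0.67 and from the authors' deposited table a value of 0.88 followed, all short of 2-fold. Hmox2, the constitutive haem oxygenase, had probes at -0.23 and 0.13, a mean of -0.05. Nqo1, the quinone reductase often used to read NRF2 activity, was not well above background on either array, at 4.12 ± 4.10 and 9.82 ± 9.78.

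Taken by known NRF2 targets across the systems, 8 of 11 were measured: Gclc, Gclm, Gsr, Txn1, Txnrd1, Prdx1, Hmox1 and Gstp1. Of these 1 (Hmox1) was past 2-fold upward and 0 downward, where 4.87% and 1.68% of all genes were, and their own median was -0.06. The all-gene median of -0.17 was exceeded by 6 of the 8, Gclc only just at -0.16, and by 5258 of all 10517 genes. The mitochondrial members Glrx2, Glrx5, Txn2, Txnrd2, Prdx3 and Sod2 had differences from -0.64 to -0.11 with a median of -0.37. Of these 6, 1 (Prdx3) exceeded the all-gene median. Prdx5, found in mitochondria and elsewhere, was left out of this grouping and stood higher, at -0.09. All 6 were below 0, as were 63.2% of all genes. Subtracting the median of genes of like level put 2 of the 6 above 0, with a median of -0.09. The selenocysteine enzymes Gpx1, Gpx4, Txnrd1 and Txnrd2 lay between -0.27 and 0.08. These groupings follow textbook roles and carry no test.

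The promoters show which of the genes hold the letters that NRF2 is known to bind close to the start. The table of RefSeq promoters used here (GRCm38.p6) held 41, from 250 bases before a start to 50 after it, for 30 of the 35 genes. Gclc, Gsr, Msra, Prdx6 and Hmox1 were not searched. The core of the antioxidant response element was searched as TGACNNNGC on both strands (GCNNNGTCA on the other), and it matched in 6 of the 41, or 14.6%, against 12.4% of all 32851 promoters. The genes were Gclm, Prdx1, Txnrd1, Nfe2l2, Sod1 and Srxn1, the match of Srxn1 lying after its start. A share of this size is about that of all promoters. The 250 bases before the start follow for the 5 genes with a match there, with the match in capitals. They are written 5′ to 3′ along the gene and are, in order, chr3:122245307-122245556 (+), chr4:116685349-116685598 (+), chr10:82858956-82859205 (+), chr2:75704664-75704913 (-) and chr16:90220512-90220761 (+). Txnrd1 has 3 listed starts, and the start with the match is shown.
Gclm: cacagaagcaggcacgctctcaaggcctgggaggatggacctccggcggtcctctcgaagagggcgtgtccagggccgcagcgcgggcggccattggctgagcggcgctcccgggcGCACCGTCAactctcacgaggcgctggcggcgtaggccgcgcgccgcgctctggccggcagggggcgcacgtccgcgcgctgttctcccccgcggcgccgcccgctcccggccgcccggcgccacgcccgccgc
Prdx1: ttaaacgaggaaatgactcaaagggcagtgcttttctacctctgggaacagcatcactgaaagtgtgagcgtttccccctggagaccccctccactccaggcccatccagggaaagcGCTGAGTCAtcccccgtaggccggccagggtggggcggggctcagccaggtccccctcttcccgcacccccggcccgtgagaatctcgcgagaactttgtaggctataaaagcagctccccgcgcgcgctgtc
Txnrd1: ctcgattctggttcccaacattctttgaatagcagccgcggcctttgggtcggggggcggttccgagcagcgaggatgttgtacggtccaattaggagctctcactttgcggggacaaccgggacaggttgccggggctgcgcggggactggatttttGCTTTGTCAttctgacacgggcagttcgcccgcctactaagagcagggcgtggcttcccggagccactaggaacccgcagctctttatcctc
Nfe2l2: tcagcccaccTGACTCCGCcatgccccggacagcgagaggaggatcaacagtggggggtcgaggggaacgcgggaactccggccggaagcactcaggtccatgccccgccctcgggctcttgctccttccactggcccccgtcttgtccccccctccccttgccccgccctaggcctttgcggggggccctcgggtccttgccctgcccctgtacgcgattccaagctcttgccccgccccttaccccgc
Sod1: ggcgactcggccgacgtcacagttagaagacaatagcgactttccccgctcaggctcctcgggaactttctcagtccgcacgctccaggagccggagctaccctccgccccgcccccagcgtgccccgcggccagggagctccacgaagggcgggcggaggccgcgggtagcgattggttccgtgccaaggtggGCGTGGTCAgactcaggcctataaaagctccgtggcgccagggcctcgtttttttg
Counted from the start, the match lies at -134 to -126 in Gclm, -133 to -125 in Prdx1, -92 to -84 in Txnrd1, -240 to -232 in Nfe2l2 and -56 to -48 in Sod1. The differences of these 5 genes ran from -0.59 for Nfe2l2 to 0.97 for Gclm. Only Gclm, with 1 probe, was above 0, and 63.2% of all genes were below 0. Whether a match goes with a sign was not tested. A match is a run of letters and no proof of binding. In no promoter of the members did it overlap a match of the CCAAT box described next.

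The promoters of Cat and Prdx4 are shown because these genes lay at the ends of the range. Neither holds the element above. The CCAAT box, a common promoter element, was searched as CCAAT on both strands (ATTGG on the other) and is in capitals. It matched in 36.6% of the 41 promoters and in 37.4% of all. The regions are chr2:103485154-103485403 (-) for Cat and chrX:155338461-155338710 (-) for Prdx4.
Cat: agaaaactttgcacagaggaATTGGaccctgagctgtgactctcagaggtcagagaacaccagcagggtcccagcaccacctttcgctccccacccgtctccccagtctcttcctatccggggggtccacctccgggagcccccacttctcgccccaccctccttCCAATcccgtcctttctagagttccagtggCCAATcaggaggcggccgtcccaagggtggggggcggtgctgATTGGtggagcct
Prdx4: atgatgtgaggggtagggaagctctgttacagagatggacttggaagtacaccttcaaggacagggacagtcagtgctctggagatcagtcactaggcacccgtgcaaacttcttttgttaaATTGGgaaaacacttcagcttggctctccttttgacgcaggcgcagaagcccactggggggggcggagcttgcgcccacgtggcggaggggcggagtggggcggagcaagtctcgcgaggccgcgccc
Cat held 4 matches, at -230, -85, -55 and -13 by their base farthest from the start, and Prdx4 held 1, at -128. Catalase genes are known for CCAAT boxes near the start.

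Brightness bears on how these values read. The members were mostly bright, 19 of the 31 in the top 3 of 10 equal bins of level and 10 in the top bin. Over all genes the median difference fell from 0.18 in bin 2 from the bottom to -0.33 in the top bin. Set against the median of their own bin, 18 members lay above it and 13 below, and their median became 0.12. On that footing Cat stood at 1.48, Gclm at 1.14 and Hmox1 at 1.13, while Prdx4 stood at -0.94 and no longer reached 2-fold. Prdx2 and Gstp1 followed at 0.88 and 0.81. The low values of Sod1, Glrx5 and Txn2 shrank to -0.06, -0.14 and -0.16, and that of Sod2 to -0.31.

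**Figure D3:**
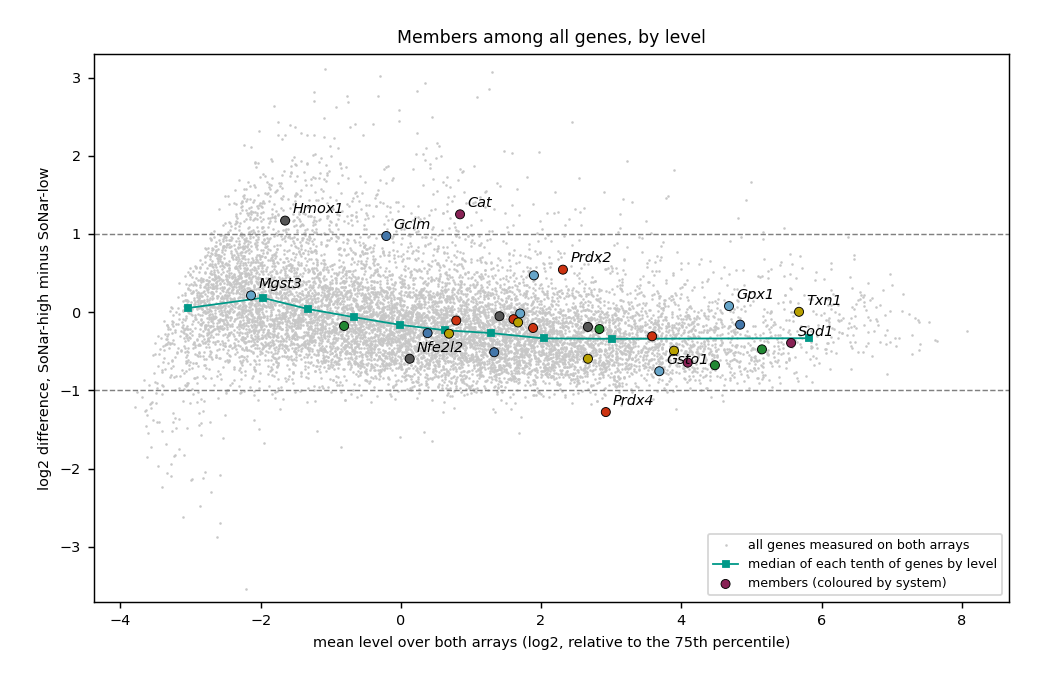
Log2 difference (SoNar-high minus SoNar-low) against mean level for all 10517 genes measured on both arrays (grey), with the 31 measured members coloured by system and the median of each of 10 bins of level in green. The green line falls from 0.18 in bin 2 to -0.33 in the top bin; Cat, Gclm and Hmox1 stand above it and Prdx4 below it.

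The sign of many members depends on the scaling. Over 12 other settings 15 of the 31 kept their sign, 3 above 0 (Cat, Hmox1 and Gclm) and 12 below, among them Prdx4, Sod1, Sod2, Gsr, Gsto1 and Nfe2l2, and 16 took the other sign at least once. With each array set to its median instead, every difference is lower by the same 0.61. Then 0 members passed 2-fold upward and 10 downward, where 1.32% and 31.4% of all genes did, and Cat and Hmox1 stood at 0.64 and 0.56. Taking the 75th percentile only from spots that both arrays detected raised every difference by 0.21 instead, and Gclm then stood at 1.19. The order of the genes and the gaps between them do not change with such a shift. Several settings concern only dim or repeated probes and left a given gene as it was. Of the 7 settings that changed the value of Cat, 6 kept it at least 2-fold higher, and of the 6 that changed Prdx4, 5 kept it at least 2-fold lower. For Hmox1 8 settings changed the value and 4 of them kept it past 2-fold.

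**Figure D4:**
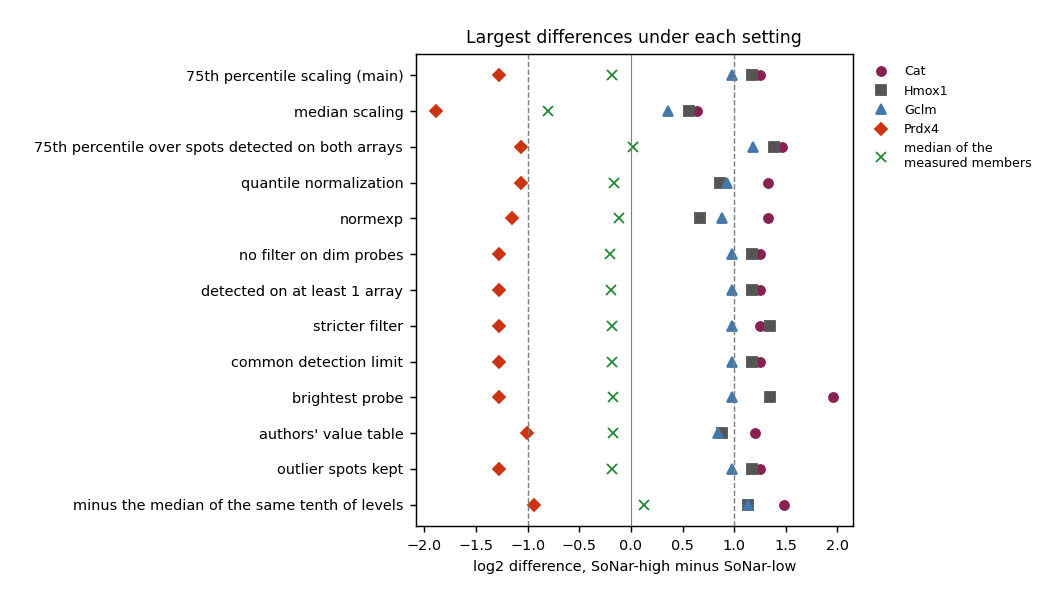
Log2 difference, SoNar-high cells minus SoNar-low cells, for Cat, Hmox1, Gclm and Prdx4 and the median of the measured members under the main scaling and 12 other settings; dashed lines mark 2-fold. Cat, Hmox1 and Gclm lie right of 0 and Prdx4 left of 0 in each, and median scaling moves all points to the left by 0.61.

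Genes that work with the members were read from lists of their own. Among NRF2 partners and further targets, 20 of 24 were measured, 2 passed 2-fold upward and 0 downward, where 4.87% and 1.68% of all genes did, with a median of -0.04. Sesn2, a stress-induced sestrin, gave 1147 against 336, a difference of 1.62, and Slc48a1, a haem transporter, gave 12345 against 3974, a difference of 1.49. Each value rests on 1 probe. Blvra and Blvrb, the biliverdin reductases that act after haem oxygenase, stood at 0.17 and 0.40, and the ferritin chains Fth1 and Ftl1 at -0.29 and -0.20. Bach2, a B cell repressor that competes for the same DNA element, stood at -0.86. Bach1 was marked as detected only on the SoNar-high array, but its signals of 70.9 and 57.3 were close and its bound was 1.12-fold. Ugdh was the lowest of this list at -0.94.

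Of 14 other thioredoxin fold and methionine sulfoxide genes measured, 1 passed 2-fold on each side, where 4.87% of all genes did upward and 1.68% downward, with a median of -0.39. Txnrd3, a thioredoxin reductase best known from testis, gave 1443 against 2664, a difference of -1.03. Txndc9 averaged 1.18, but its 3 probes gave 3.55, 0.34 and -0.35, so the mean comes from 1 probe. Txnip, which binds and blocks thioredoxin, stood at -0.33. Of other glutathione peroxidases and transferases 11 of 24 on the array were measured, from Gsto2 at -0.70 to Gstt3 at 0.51. Among these 0 reached 2-fold upward or downward, where 4.87% and 1.68% of all genes did. A further 10 of the 24 were detected only on the SoNar-high array, which flagged dimmer spots, as were 26.5% of all named genes. For these only a bound can be given, taken from the probe with the largest. The bound sets that level against the lowest level detected in SoNar-low cells, or against the level of the same probe there where this was higher. It put Gstm6 at least 2.87-fold, Gstm2 at least 2.80-fold and Gstm7 at least 2.12-fold higher, mu class transferases whose sequences are alike enough to share probes. Each bound comes from 1 probe of a gene that counted only because it was detected in SoNar-high cells. The other 2 probes of Gstm6 and the other probe of Gstm7 were detected on neither array and give no direction. Over all 5454 genes detected on that array alone, 6.71% had a bound of 2-fold or more.

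Genes of supply and of peroxide production were read in the same way. Of all genes 4.87% lay past 2-fold upward and 1.68% downward, so a count of 0 in lists this short says nothing particular. Among the genes of glutathione breakdown and cysteine supply, 9 of 15 were measured, with 0 at 2-fold in either direction and a median of -0.15. Ggct, which handles gamma-glutamyl peptides, was the lowest at -0.97 and Cbs, which makes cystathionine, the highest at 0.61, while Slc3a2, the partner chain of the cystine importer, stood at -0.27. Of the NADPH suppliers 12 were measured, with 0 at 2-fold in either direction and a median of -0.24, from Taldo1 at -0.60 to Pgls at 0.46. G6pdx, the gateway enzyme of the pentose phosphate path, stood at -0.11. All 15 genes of selenoprotein synthesis and other selenoproteins were measured, again with 0 at 2-fold in either direction, from Selenok at -0.92 to Eefsec, the elongation factor that delivers selenocysteine, at 0.94. Among makers of superoxide and peroxide, 4 of 13 were measured, from Cyba, a membrane subunit of the phagocyte oxidase, at -0.34 to Rac2, its small GTPase, at 0.62. A further 7 of the 13 were detected only on the SoNar-high array, which flagged dimmer spots, as were 26.5% of all named genes. Cybb, 1 of these 7, gave 42.6 against 42.8. Sod3, the extracellular dismutase, was also among the 7, with a bound of at least 2.63-fold. That bound comes from 1 probe that counted only because it was detected in SoNar-high cells. Of all 5454 genes detected on that array alone, 6.71% had a bound of 2-fold or more.

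Markers of other marrow cells differed between the same arrays, and their part in the values of Cat, Hmox1 and Prdx2 was not tested. In such bulk samples fewer cells of a type and less RNA per cell cannot be told apart. Red cell precursors hold much catalase and Prdx2, and macrophages that take up haem hold much Hmox1. Of 14 erythroid markers 5 were measured, with 2 past 2-fold upward (4.87% of all genes were), the alpha globin gene Hba-a1 at 1.88 and Ermap at 1.67. The median was 0.48, yet the summed signal of the list was 20592 on the SoNar-high and 27400 on the SoNar-low array, with Hemgn, which alone gave 14153 and 22791, at -0.83. Such sums follow their brightest probes and are no measure of cells. Neither array detected Epb42. Of 16 neutrophil markers 12 were measured, 3 of them past 2-fold upward and 0 downward, against 4.87% and 1.68% of all genes, with a median of 0.59. Their summed signals were 65183 and 45165, of which Csf3r alone gave 39790.0 and 26891. Ngp was the highest at 1.29. Monocyte and macrophage markers had summed signals of 644 and 426. Of these 3 were measured, from Mrc1 at -0.56 to Csf1r at 1.25, while neither array detected Ccr2, Cd163 or Spic. Of 6 T cell markers 3 were measured, with Cd4 at 1.72, Cd3e at 1.26 and Lck at -0.94. They summed to 1346 and 1681, a sum of which Lck alone gave 858 and 1490.2, and Cd3d was not well above background on either array. Natural killer markers summed to 938 and 427, and all 3 that were measured were higher, from Nkg7 at 0.99 to Prf1 at 1.22, with Klrb1c and Klrd1 not well above background on either array.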

How the data were processed

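Per the labels, total RNA of each sorted population was labelled with Cy3 and put on 1 Agilent array. The deposited scanner files hold intensity values that the software subtracted for background and detrended, per the file headers, which name Feature Extraction 11.0.1.1 where the submitters' processing notes name version 9.1. The table that the authors deposited holds log2 values whose columns have the same median of 5.91, and the sources used here name no further step.

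From the scanner files log2 of the processed signal was taken, and the 75th percentile of all spots but controls was subtracted, array by array. Outlier spots (685) were dropped, none of them on a member's probe, and spots of a probe were averaged. A gene's difference is the mean over probes well above background on both arrays. Probes were named by RefSeq accession (27115 of 39085). The array's annotation is of mm9 and the promoter table of GRCm38.p6, so only promoter positions are printed. All 35 members are named; of related lists, genes past 2-fold and otherwise the highest and lowest, and others chosen after their values were seen. Members, lists and settings were chosen with earlier results of these data known. The steps were tested on simulated data. No p-value was computed. Alternatives changed the scaling, background, filter, probe choice or source table. Python 3.11.15, numpy 2.4.6, pandas 2.3.3, matplotlib 3.10.9, R 4.3.3 and limma 3.58.1 were used.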

Additional observations from a re-analysis of the deposited data

Results flagged for a closer look

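Probes of 3 members had signal on the SoNar-high array but entered no difference, since they were not well above background on the SoNar-low array. On the SoNar-high array the signal was 40.7 for the second probe of Mgst3, 30.8 for the dim probe of Prdx6 and 26.0 for the probe of Srxn1. Each exceeded 5.50, a signal that 2.5% of the 153 negative control spots of that array exceeded. On the SoNar-low array that limit was 13.3, and the same probes gave 18.0, 28.3 and 50.7, also above it.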

How the results depend on the processing

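No paired analysis was possible because there was 1 array in each group, and no array could be left out for the same reason. Against 2 members at least 2-fold higher, the count was 0 with median scaling, where 1.32% of all genes were that much higher. It was 1 (Cat) with quantile normalization, with normexp and in the authors' deposited table, where 3.66%, 2.49% and 3.4% of all genes were. The count rose to 3, with Gclm added, when the 75th percentile came only from spots that both arrays detected. Subtracting the median of genes in the same bin of level also gave 3, the same genes. Of all genes 7.66% and 5.63% were that much higher in these settings. Against 1 member at least 2-fold lower, the count was 10 with median scaling and 4 with no filter on dim probes. Of all genes 31.4% and 8.49% were that much lower there. The count was 2 with detection on at least 1 array, where 1.09% of all genes were that much lower. It was 0 after subtracting the median of genes in the same bin of level, where 1.21% were. That last setting was added after the data were seen. The added members without a filter were Nqo1, Slc7a11 and Srxn1, all dim. The members' median of -0.19 became -0.80 with median scaling. It turned positive in 2 settings, at 0.02 when only spots that both arrays detected set the 75th percentile, and at 0.12 against the bins of level. Srxn1 no longer counted as detected on the SoNar-high array alone with the stricter filter or with 1 common limit, which made that count 0. A shift of all values or a wider or narrower filter gives such changes by construction; the cause was not tested for quantile normalization, for normexp or for the deposited table. Over all genes, 512 higher and 177 lower became 139 and 3306 with median scaling, 385 and 350 with quantile normalization, and 358 and 430 in that table. Of 372 values of single members under the 12 settings, 173 were left exactly as they were, 57 moved by more than the between-probe SD, 31 of them with median scaling, and 0 of those past 2-fold changed sign. Signal over background left Slc7a11, Gpx7 and Nqo1 undetected on both arrays and Srxn1 without a difference.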
